A study of Homo sapiens with 6 samples.

Results

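The genes described here encode the nascent polypeptide-associated complex (NAC) and the signal recognition particle (SRP) with its receptor, in TE-1 cells, a line from a human oesophageal squamous cell carcinoma. There were 10 such genes among 18132 genes on the array with a probe set of their own: BTF3, BTF3L4 and NACA for NAC, SRP9, SRP14, SRP19, SRP54, SRP68 and SRP72 for the particle, and SRPRA for the receptor. They were taken by gene symbol, from probe sets whose annotation lists 1 symbol. Where a gene had several such probe sets, 1 was chosen by its mean signal over all 6 arrays, the brightest standing for the gene, so the choice used the level but not the group. That choice was closest for SRP14, where the chosen probe set had a mean of 11.43 over the 6 arrays and the next had 11.38. All 10 genes lay above the filter on low values and were among the 13599 genes tested.

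The control group was 3 arrays of parental TE-1 cells, and the other group was 3 arrays of the same line after stable knockdown of EIF3C, a subunit of the initiation factor eIF3. The labels call the samples biological replicates, do not say whether they came from separate cultures, and describe the knockdown cells as 1 clone. The labels give no cells with a control construct, so the knockdown and any other difference between the clone and its parental line cannot be told apart. Adjusted p-values here therefore reflect the variation among these arrays alone, and that variation may be technical.

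NAC is a dimer that sits at the exit of the ribosomal tunnel and meets almost every new protein chain first, and it keeps the SRP from binding ribosomes that make cytosolic proteins. The SRP is a ribonucleoprotein that binds a signal sequence as it emerges, slows elongation and brings the ribosome to the SRP receptor on the endoplasmic reticulum, where the chain enters the Sec61 channel. In NAC, NACA is the alpha subunit, BTF3 the beta subunit and BTF3L4 a close paralogue of BTF3.

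The upstream sequences of 3 of these genes are shown because they show the widest contrast among the 10: BTF3L4 had the largest rise of these genes, its paralogue BTF3 did not pass on its brightest probe set, and SRP14 had the largest fall of these genes. Each sequence is the 250 bases before the RefSeq start of the gene in GRCh38.p14, written on the gene's strand, 5′ to 3′. Capitals mark matches, on either strand, to 3 motifs. The first is the E-box CACGTG, which reads the same on both strands. The second is the ETS core GGAAGT. The third is the CCAAT box. No marked match overlaps another.
BTF3L4, chr1:52056045-52056294, plus strand: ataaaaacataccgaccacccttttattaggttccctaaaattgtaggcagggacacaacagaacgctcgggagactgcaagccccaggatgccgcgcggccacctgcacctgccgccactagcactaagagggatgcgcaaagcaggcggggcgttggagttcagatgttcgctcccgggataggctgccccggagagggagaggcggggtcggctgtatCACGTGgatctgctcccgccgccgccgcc
BTF3, chr5:73498192-73498441, plus strand: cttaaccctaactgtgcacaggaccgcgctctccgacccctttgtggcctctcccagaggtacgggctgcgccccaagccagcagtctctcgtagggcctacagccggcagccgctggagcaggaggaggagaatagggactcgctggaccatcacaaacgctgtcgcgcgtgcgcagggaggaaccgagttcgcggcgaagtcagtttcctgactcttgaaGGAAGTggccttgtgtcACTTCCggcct
SRP14, chr15:40039203-40039452, minus strand: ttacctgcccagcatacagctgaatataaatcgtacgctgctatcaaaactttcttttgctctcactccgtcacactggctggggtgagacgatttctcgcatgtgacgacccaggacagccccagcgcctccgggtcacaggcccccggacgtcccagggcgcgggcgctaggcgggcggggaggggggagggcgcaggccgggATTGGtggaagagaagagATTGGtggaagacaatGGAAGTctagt
The BTF3L4 window held 1 E-box, which began 29 bases before the start, and neither other motif. The BTF3 window held 2 matches to the ETS core. The SRP14 window held 1 match to the ETS core and 2 to CCAAT. RefSeq windows were matched for 9 of the 10 genes, all but SRPRA. Among these 9, the E-box was found for BTF3L4 alone, against 6.49% of 27305 windows of the same length over all genes. The ETS core was found for 6 of the 9 (BTF3, NACA, SRP14, SRP19, SRP54 and SRP72), against 19.9% of all windows. CCAAT was found for 2 of the 9, SRP9 and SRP14, against 33% of all windows. The GC box GGGCGG was found for 5 of the 9 against 42.3%, and TGACG, part of the cyclic AMP response element, for 4 of the 9 against 21.7%. The 27305 windows were not limited to the genes tested here, and shares over those genes alone were not taken. These matches describe the letters in the windows and do not show binding. Of the genes with an ETS core, NACA, SRP19 and SRP54 were called higher, SRP14 and SRP72 lower, and BTF3 was not called.

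Transcripts of the target were low in the knockdown arrays. On the brightest of 5 probe sets for EIF3C, all of which also match its near-identical copy EIF3CL, the mean log2 signal ± SD of the 3 arrays was 10.62 ± 0.06 for control and 8.44 ± 0.04 for knockdown, or 22.1% of the control level. Array medians lay between 6.092 and 6.111. Of 10 epithelial markers, 7 had a probe set of their own, and 4 of these (SFN, PERP, EPCAM and CDH1) were above 8 in both groups. EPCAM and CDH1 are not particular to squamous epithelium, so this count does not show a squamous type. EPCAM and CDH1 were called higher in knockdown, and PERP and DSG3 lower, DSG3 from 8.14 to 7.45; their part in the results was not tested. The basal keratin genes KRT5 and KRT14 were dim, at 5.67 to 6.09, and TP63 is not analysed here. All 14 measured markers of fibroblasts, blood cells and endothelium were at or below 6.34 in both groups.

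Of the 10 genes, 4 were higher in knockdown, 3 were lower and 3 did not pass the threshold (limma with Benjamini-Hochberg adjustment over all genes tested, adjusted p at most 0.05). Over all genes tested, 32.4% were called higher and 34.1% lower, 66.5% in either direction, so the share of called genes here was near that of the array. BTF3L4 alone changed at least 2-fold, where 4.82% of all genes did so and were called. Its rise was known when the genes were put together, so nothing is read from that count. The median log2 fold change of the 10 was 0.03 against -0.035 over all genes tested, and the median size of change was 0.16 against 0.23. In 5 genes all knockdown arrays lay above all controls and in 2 below, against 33.6% and 36.7% of all genes (70.3% in either direction), and in 3 genes the groups overlapped. The plot of signals by array shows BTF3L4 as the only panel with a wide gap between the groups.

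**Figure D1:**
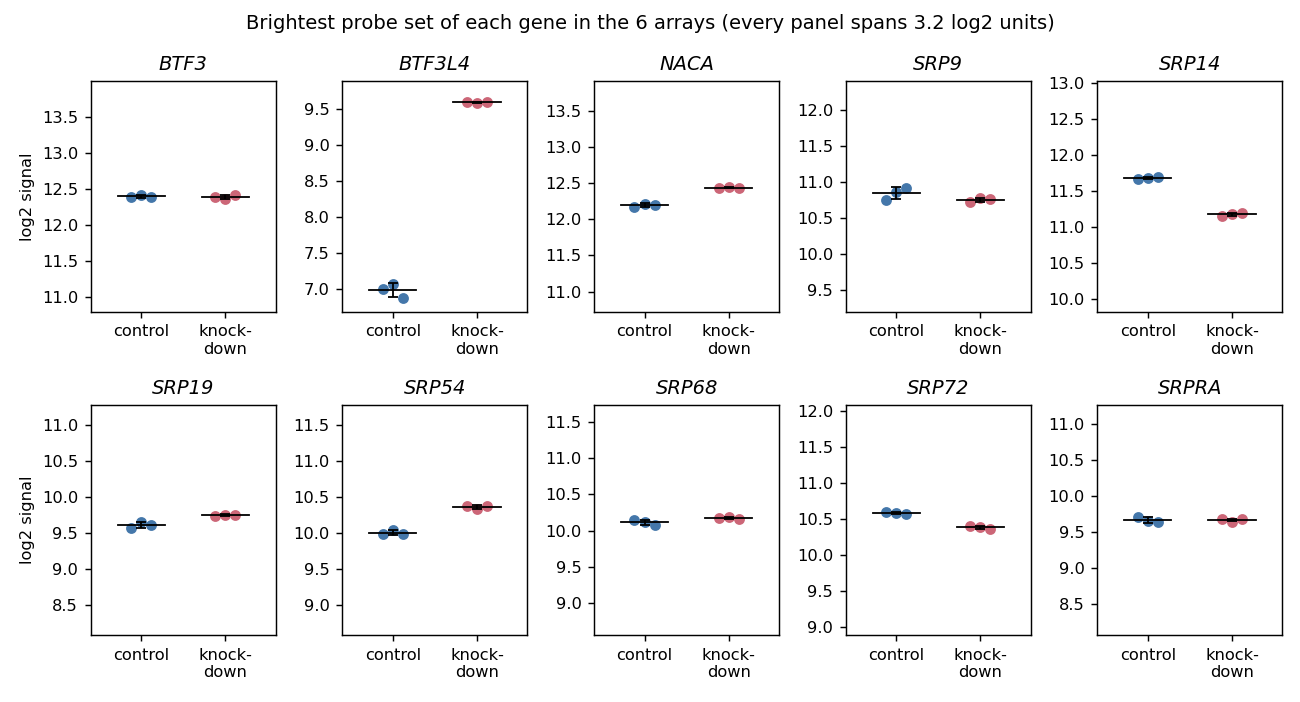
Log2 signal of the brightest probe set of each gene in 3 control (blue) and 3 knockdown (red) arrays; black lines are group means with SD bars, and every panel spans the same range of log2 units. BTF3L4 rose from 6.99 to 9.59, SRP14 fell from 11.68 to 11.18, and BTF3, SRP9 and SRPRA overlapped between the groups.

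Among the NAC genes, BTF3L4 had log2 signals of 7.01, 7.08 and 6.88 in the control arrays and 9.60, 9.58 and 9.60 in the knockdown arrays. All 3 knockdown arrays lay more than 2 log2 units above every control array, and the groups did not overlap. The log2 fold change was 2.61 (SE 0.049, 95% interval 2.50 to 2.71), or 6.08-fold higher in knockdown, which ranked 9 from the top of 13599 genes. This rise was already known when the genes were put together, so it is a description: BTF3L4 is counted by the same call rule as the other genes, and nothing is read from its call or from those of its probe sets. The gene's other probe sets, which the choice by level did not use, showed the same direction. The first of them read 6.12, 6.24 and 6.09 in control and 9.22, 9.25 and 9.19 in knockdown, a log2 fold change of 3.07 (SE 0.053). The other read 6.86, 6.70 and 6.61 in control and 8.60, 8.65 and 8.59 in knockdown, a log2 fold change of 1.89 (SE 0.061). The groups were apart on all 3 probe sets, although the size of the rise ranged from 1.89 to 3.07 and the intervals of the 3 probe sets did not meet.

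NACA, the alpha subunit, had log2 signals of 12.17, 12.22 and 12.20 in control and 12.43, 12.45 and 12.44 in knockdown. Every knockdown array was above every control array. The rise was small, 0.24 (SE 0.019), or 1.18-fold (limma, adjusted p = 4.49e-09). The second NACA probe set rose by 0.30 (SE 0.028, limma over all human probe sets, adjusted p = 2.09e-07). Both carry the suffix _x_at, with which Affymetrix marks probe sets that may bind other sequences. NACA2, a retrogene copy closely related to NACA, rose by a like amount on its 1 probe set, from 11.23 ± 0.03 to 11.50 ± 0.06 (mean ± SD, n = 3 each; log2 fold change 0.27, limma, adjusted p = 1.64e-07). The signals of these 2 genes may be shared between their probe sets, and how much each gene contributes was not tested. NACAD, a further NAC alpha domain gene, was dim and lower, 5.15 ± 0.09 in control and 4.83 ± 0.09 in knockdown (log2 fold change -0.32, limma, adjusted p = 0.00441).

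BTF3, the beta subunit, read 12.38, 12.42 and 12.39 in control and 12.39, 12.36 and 12.42 in knockdown on its brightest probe set. The groups overlapped, and the log2 fold change of -0.01 did not pass (95% interval -0.05 to 0.03, limma, adjusted p = 0.669). The interval leaves room for a change of at most 0.05 on this probe set. The other BTF3 probe sets were both called lower. The second brightest fell by 0.10 (SE 0.021, limma over all human probe sets, adjusted p = 0.00102), with 12.03, 12.07 and 12.05 in control and 11.98, 11.94 and 11.95 in knockdown. The dimmest fell by 0.38 (SE 0.061, adjusted p = 7.53e-05 by limma), with 7.18, 7.23 and 7.08 in control and 6.82, 6.78 and 6.74 in knockdown. With the mean of its probe sets BTF3 was called lower, at -0.16 (limma, adjusted p = 5.42e-05). No BTF3 probe set was called higher.

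**Figure D2:**
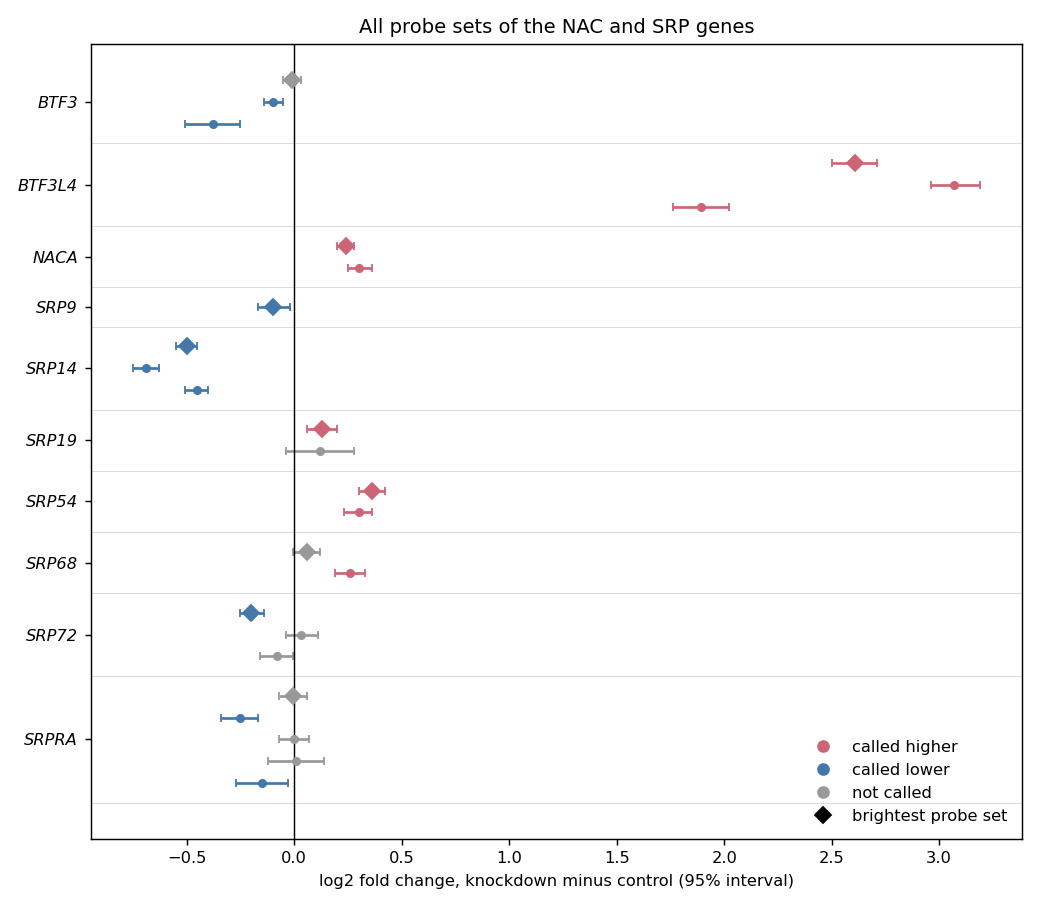
Log2 fold change of all 26 probe sets of the 10 genes, knockdown minus control, with 95% intervals from the fit over all human probe sets; diamonds are the brightest probe set of a gene, and colours give the call. The 3 probe sets of BTF3L4 lie between 1.89 and 3.07, the 3 of SRP14 between -0.69 and -0.45, and no gene has probe sets called in both directions.

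SRP9 and SRP14 bind as a dimer to the Alu domain of the SRP RNA, the end of the particle that slows elongation. SRP14 read 11.67, 11.68 and 11.70 in control and 11.16, 11.19 and 11.20 in knockdown. The groups were well apart, and the log2 fold change was -0.50 (SE 0.022), which left 70.8% of the control level (limma, adjusted p = 2.95e-12). The other probe sets of SRP14 fell by 0.69 (SE 0.029) and 0.45 (SE 0.026), so all 3 were lower (limma over all human probe sets, adjusted p at most 1.35e-09). Its fall was larger in size than the change of 78.1% of all genes tested.

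SRP9, its dimer partner, had 1 probe set, with 10.76, 10.87 and 10.92 in control and 10.72, 10.78 and 10.77 in knockdown. The lowest control array lay within the range of the knockdown arrays. The log2 fold change of -0.10 (SE 0.034) passed the threshold (limma, adjusted p = 0.0199) but was lost in 4 alternatives. Without control replicate 3 the change was -0.06 (limma, adjusted p = 0.103). It was -0.09 without control replicate 2 (adjusted p = 0.0659 by limma), -0.08 without knockdown replicate 1 (0.0823) and -0.10 without the intensity trend (0.121).

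The other proteins of the particle form the S domain, which recognises the signal sequence. SRP54, the GTPase that binds the signal sequence and docks with the receptor, read 9.99, 10.04 and 9.98 in control and 10.38, 10.33 and 10.38 in knockdown. All knockdown arrays were higher, by 0.36 on average (SE 0.029, 1.28-fold, limma, adjusted p = 6.45e-09). Its second probe set rose by 0.30 (SE 0.03, adjusted p = 6.52e-07 by limma over all human probe sets). SRP19, which helps SRP54 to load on the RNA, read 9.57, 9.65 and 9.61 in control and 9.73, 9.75 and 9.75 in knockdown. It rose by 0.13 (SE 0.031, limma, adjusted p = 0.00115), and by 0.08 with quantile normalization. The dimmer SRP19 probe set overlapped between the groups, with a log2 fold change of 0.12 (SE 0.075) that did not pass (limma, adjusted p = 0.227).

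SRP68 and SRP72 bind each other and the RNA. SRP72 read 10.59, 10.58 and 10.56 in control and 10.40, 10.38 and 10.36 in knockdown. The groups did not overlap, and it fell by 0.20 (SE 0.025, 87.2% of the control level, limma, adjusted p = 2.67e-06). Its other probe sets did not pass, at 0.03 (limma, adjusted p = 0.471) and -0.08 (adjusted p = 0.0801), and with the mean of its probe sets the fall was 0.08. SRP68 read 10.15, 10.12 and 10.08 in control and 10.17, 10.19 and 10.16 in knockdown. Its knockdown arrays lay just above all controls, but the log2 fold change of 0.06 did not pass (95% interval -0.004 to 0.12, limma, adjusted p = 0.0934). A dimmer SRP68 probe set was called higher, at 0.26 (SE 0.031, limma over all human probe sets, adjusted p = 4.47e-06). With the mean of its probe sets (0.16, limma, adjusted p = 9.54e-05) or without control replicate 1 (0.07, adjusted p = 0.0432), SRP68 was called higher.

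SRPRA, the GTPase subunit of the SRP receptor that meets SRP54 at the membrane, read 9.71, 9.66 and 9.64 in control and 9.68, 9.65 and 9.68 in knockdown. The groups overlapped, with a log2 fold change of -0.004 (95% interval -0.07 to 0.06, limma, adjusted p = 0.91). Of its 5 probe sets, 2 were called lower, at -0.25 (limma, adjusted p = 7.8e-05) and -0.15 (adjusted p = 0.0357), and the remaining 3 lay between -0.004 and 0.01. With the mean of its probe sets SRPRA was called lower, at -0.08 (limma, adjusted p = 0.0469). SRPRB, which anchors SRPRA in the membrane, fell from 9.52 ± 0.01 to 9.14 ± 0.05 (mean ± SD, n = 3 each; log2 fold change -0.38, limma, adjusted p = 3.18e-08), and all 3 of its probe sets were called lower, from -0.38 to -0.17.

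Small differences were also seen in probe sets that match no human gene. The 85 non-human control probe sets of the array differed between the groups by -0.22 to 0.20. The changes of 6 of the 10 genes were no larger than the largest of these, 0.221, and 3 of these 6 were called: SRP9, SRP19 and SRP72. SRP14, SRP54 and NACA lay beyond it, as did BTF3L4, whose rise was known beforehand. The 17 control probe sets with a control mean of at least 9 differed by -0.20 to 0.05, and the rises of SRP19 (0.13) and NACA (0.24) lay above that range. In size, however, these probe sets differed by up to 0.20, more than SRP19 did. The fall of SRP9 (-0.10) lay within the range, and that of SRP72 (-0.20) at its edge. Over the 26 probe sets, 9 were called higher, 3 of them of BTF3L4, and 9 lower. Over all 49293 human probe sets the share was 24.1% in each direction, with no filter on low values. The 26 all had means of at least 6.91, so the 2 sets are not alike. Past the filter, with 1 probe set a gene, 66.5% of genes were called. Every probe set was called higher for NACA and SRP54 and lower for SRP14 and SRP9, the last with 1 probe set. All 3 of BTF3L4 were called higher too, but its rise was known beforehand and nothing is read from them. The other 5 genes had probe sets that differed in their call, and 0 genes had probe sets called in opposite directions. By their suffixes, 6 of the 26 probe sets are _x_at, 7 are _s_at (probes that may match several transcripts), 9 are _a_at (several transcripts of 1 gene) and 4 have the plain _at ending. All 3 probe sets of BTF3L4 are of the first or second kind.

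Partners of a complex were also compared with each other. In each array the log2 signal of a gene was subtracted from that of its partner or paralogue and set against the mean of the control arrays, which shows unequal change and compares no levels. BTF3L4 minus BTF3 was 0.04, 0.06 and -0.10 in the control arrays and 2.62, 2.63 and 2.59 in the knockdown arrays, a difference of 2.62. BTF3 minus NACA was lower in all 3 knockdown arrays, at -0.24, -0.29 and -0.23, against -0.009 to 0.006 in control. That difference of -0.25 was -0.44 with the mean of each gene's probe sets.

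SRP9 minus SRP14 was 0.39, 0.42 and 0.39 in knockdown against -0.08, 0.02 and 0.06 in control, a difference of 0.40. SRP68 minus SRP72 was 0.23, 0.27 and 0.26 in knockdown against 0.02, -0.003 and -0.02 in control, a difference of 0.25. The groups did not overlap for any of the 4 pairs. Of all genes tested, 70.3% had no overlap in either direction. The share of other gene pairs without overlap was not taken, so nothing is read from that count of pairs. The rise of BTF3L4, which enters the pair with BTF3, was known beforehand. With 3 against 3 arrays the exact two-sided permutation test cannot go below p = 0.1, so no pair could pass it, and these differences are descriptions.

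**Figure D3:**
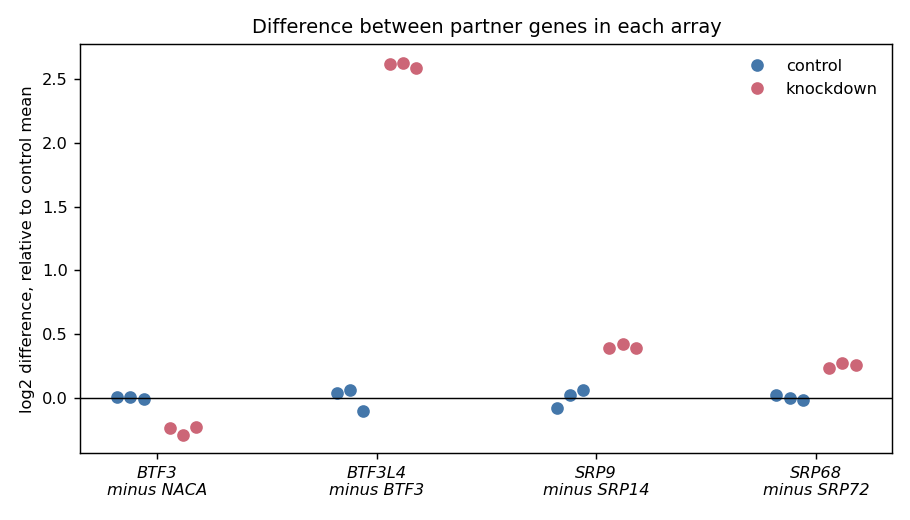
Difference in log2 signal between partner genes in each array, relative to the mean of the 3 control arrays (blue, control; red, knockdown). The knockdown arrays lie near 2.62 for BTF3L4 minus BTF3, at 0.39 to 0.42 for SRP9 minus SRP14, at 0.23 to 0.27 for SRP68 minus SRP72 and at -0.29 to -0.23 for BTF3 minus NACA.

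Other genes that act on new chains or bring them to the membrane were taken from lists by function, of which 60 of 66 genes were tested. Of these, 33 were called higher and 17 lower, against 32.4% and 34.1% of all genes, and 10 did not pass, with a median log2 fold change of 0.17. The other factors at the ribosome exit site, which are chaperones and enzymes that modify the start of the chain, had 6 of 7 called higher and 0 lower, with a median of 0.67. In the same group NAA15, the ribosome anchor of the main amino-terminal acetyltransferase, was higher by 1.53 (SE 0.042, limma, adjusted p = 9.21e-15), and NMT1, an N-myristoyltransferase, by 1.15 (SE 0.046, adjusted p = 9.73e-13). Other probe sets reached down to 0.02 for NAA15 and 0.18 for NMT1. In the ER membrane complex, an insertase for membrane proteins, 6 of 9 genes were called higher and 1 lower, from -0.10 to 0.78.

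The translocon and later steps held genes called in each direction, beside 32.4% higher and 34.1% lower over all genes. Of the Sec61 channel and its partners, 5 of 11 were called higher, 2 lower and 4 not, with a median of 0.12. Among signal peptidase genes, 4 of 5 were called higher, while SPCS3, a subunit of the complex, fell by 1.04 (SE 0.053, limma, adjusted p = 2.12e-11) on its brightest probe set. Of the 3 probe sets of SPCS3, 2 were called lower and 1 higher, the last at 0.12. Of the oligosaccharyltransferase, which adds sugar chains to proteins in the ER, 7 of 12 genes were called lower and 4 higher, with KRTCAP2, a subunit, lower by 0.67 on its brightest probe set (limma, adjusted p = 5.44e-12). Its other probe set, at -0.16, was not called.

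In the group that inserts tail-anchored and other proteins without the SRP, 3 of 7 were called higher and 2 lower, shares near the 32.4% and 34.1% over all genes. CAMLG, a receptor subunit of that route, had the largest rise of the lists, 1.86 (SE 0.056, limma, adjusted p = 3.23e-14), with a second probe set at 0.32. BAG6, a chaperone that hands over tail-anchored proteins, fell by 0.71 (SE 0.032, limma, adjusted p = 3.6e-12), and all 3 of its probe sets were called lower, from -0.71 to -0.55. Among genes of quality control for stalled chains, 4 of 6 were called higher and 2 lower, from -0.33 to 0.51, beside the same shares over all genes. In the plot of the lists by function BTF3L4 lies to the right of every other gene. Its rise was known beforehand, so nothing is read from that place.

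**Figure D4:**
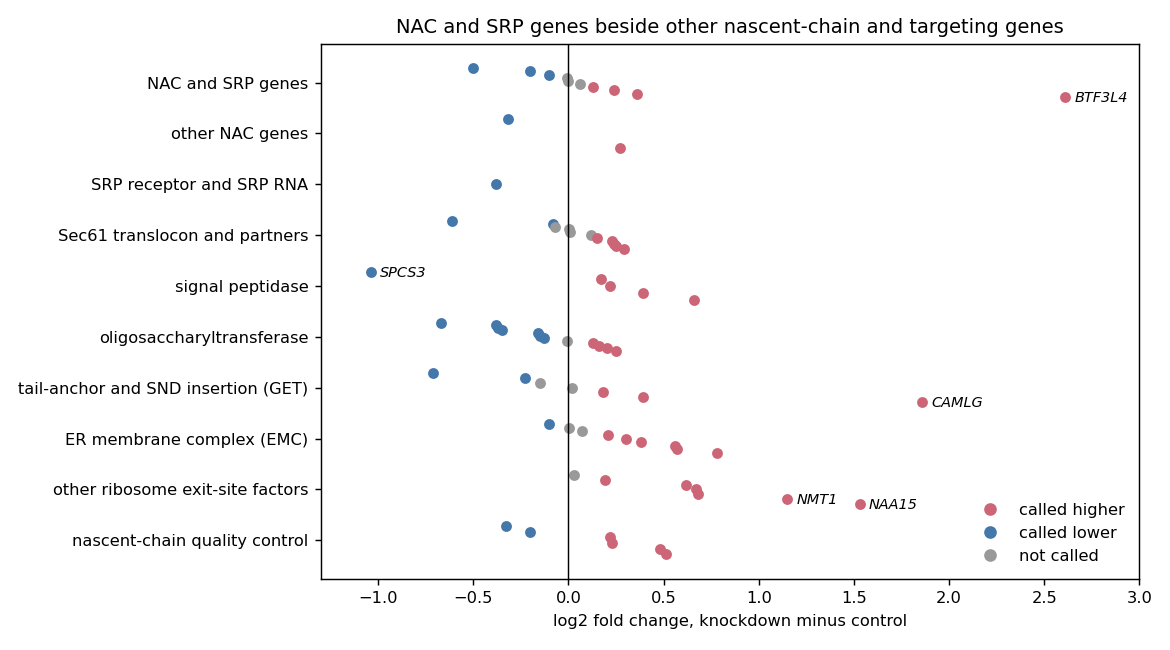
Log2 fold change of the 10 NAC and SRP genes (top row) and of 60 other genes of nascent-chain handling and targeting, by list; each point is a gene's brightest probe set, coloured by call. BTF3L4 stands at 2.61, CAMLG at 1.86, NAA15 at 1.53 and NMT1 at 1.15, and SPCS3 at -1.04 is the lowest.

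BTF3L4 was also set beside the genes whose centred signals over the 6 arrays were nearest to its own by Euclidean distance. These were MZT1, a component of gamma-tubulin ring complexes (distance 0.12, log2 fold change 2.52), EREG, a ligand of EGFR (0.14 and 2.68), and FAM216A (0.18 and 2.63). The distances rest on 6 arrays in 2 groups, so any gene with a like rise and a like spread lies close. Of the genes tested, RAB3B and TXNDC12 lie next to BTF3L4 on chromosome 1 on one side and ZFYVE9 and CC2D1B on the other. RAB3B was higher by 0.82 (limma, adjusted p = 7.73e-09), ZFYVE9 was higher by 0.23 (adjusted p = 0.00409), TXNDC12 was lower, at -0.19 (adjusted p = 0.00221), and CC2D1B did not pass, at 0.02 (adjusted p = 0.776). None of these 4 changed by 2-fold, where 4.82% of all genes did so and were called. Around all 10 genes, 40 neighbours were taken in the same way, of which 17 were called higher, 11 lower and 12 not, against 32.4% and 34.1% of all genes. Among the 40, TMEM171, the second tested gene on one side of BTF3, was the 1 past 2-fold. Its control mean of 4.74 lay close to the filter at 4.635, so the size of its log2 fold change of 1.65 is uncertain.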

How the data were processed

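Total RNA of 6 TE-1 samples (3 control, 3 EIF3C knockdown) was hybridised to Affymetrix arrays, 1 array each. The authors deposited 1 table of log2 values for 49395 probe sets. MAS5 is named, per the submitters' processing notes, and further steps were not given in the sources used here. Values ran from 1.947 to 14.14, from which a log2 scale was taken, and the array medians were alike, so nothing was rescaled. If the arrays were scaled to each other before deposit, a shift common to every gene would not be seen. The number of arrays limits the precision, and detection calls were not used here.

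Of 49293 human probe sets, 44988 had 1 symbol in the platform annotation and 1832 had several. Symbols were checked by Entrez ID against RefSeq genes of GRCh38.p14 (44961 matched, 0 changed). The brightest probe set stood for each of 18132 genes, and the lowest 25% (means under 4.635) were left out. limma 3.58.1 in R 4.3.3 (lmFit on group alone, then eBayes with the trend option) gave fold changes and p-values, adjusted by Benjamini-Hochberg over all genes tested. A second fit covered all human probe sets with no filter. The test was checked on simulated data in which 200 of 13599 genes were changed. It recovered 41.4% of them at a log2 change of 0.25, 89.3% at 0.5 and 99.5% at 1. At most 4.51% of the calls were false. A gene that was not called may thus still have changed by a small amount. In the data 66.5% of genes were called, far more than were changed in the simulation, so recovery may differ.

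Named genes were the 10 members, EIF3C, and, of the other targeting genes, the 3 highest and 3 lowest called, SRPRB and the other NAC genes. To these came the 3 genes nearest to BTF3L4 in pattern and its neighbours; TMEM171 was named after its value was seen. Members and lists were chosen with earlier results of these data known. The motifs and the shown windows were chosen after the values were seen. Alternatives were other filters, normalizations, probe set rules, test settings, a replicate block and each array left out.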

Additional observations from a re-analysis of the deposited data

How the results depend on the processing

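When all probe sets of a gene were averaged, 5 of the 10 genes were called lower, where 3 were with the brightest, and 5 were called higher. Over all genes, 8736 were called with that average, against 9037 with the brightest probe set. The share of all genes called with the average was not taken, so nothing is read from the count of members. With each array left out in turn, 4 to 5 were called higher and 2 to 3 lower. Among the other targeting genes 33 to 34 were called higher and 16 to 18 lower in those fits, and 8457 to 8881 genes over the whole table. Genes near 0 that did not pass changed sign: BTF3 ranged from -0.02 to 0.004 with an array left out (0.002 without control replicate 2, 0.004 without knockdown replicate 2), SRPRA from -0.02 to 0.02 (0.02 without control replicate 1, 0.007 without knockdown replicate 2) and 0.004 with median centring, and SRP68 was -0.003 with quantile normalization. NACA, SRP14, SRP19, SRP54 and SRP72 kept their direction and their call in all 16 alternatives run for each. Among the 16 is the fit over all human probe sets, read on the same brightest probe set. When every probe set of a gene had to be called, 3 genes were higher, BTF3L4 among them, and 2 lower. SRP19 and SRP72 did not meet that rule, and the share of all genes that met it was not taken. The log2 fold change of BTF3L4, known beforehand, ranged from 2.55 to 2.65 with an array left out.

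Deviations of same-numbered arrays from their group means correlated weakly, at 0.08, 0.13 and 0.23. Arrays of different number correlated at -0.18 to 0.10. Each knockdown array correlated best with the control array of its own number. Control replicate 1, however, correlated slightly better with knockdown replicate 2 (0.10) than with knockdown replicate 1. With the replicate number as a block, 4 genes were called higher and 3 lower, as without it, and 9307 genes were called over the whole table, against 9037. The block changed no call among the 10 genes. For SRP9 the adjusted p was 0.00387 with the block and 0.0199 without it (limma). Dim probe sets limit some values: without detection calls, a fold of a gene near the filter at 4.635, such as NACAD, is uncertain.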
